A study of Homo sapiens with 6 samples.

Results

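The HOX clusters hold, beside the coding HOX genes, many genes whose RNAs are not known to be translated into large proteins. This account follows 10 of them, HOTAIRM1, HOXA-AS2, HOXA-AS3, HOXA10-AS, HOXA11-AS, HOTTIP, HOTAIR, HOXC13-AS, HOXB-AS3 and HAGLR. They were taken by name, as the rows of the raw count table whose Ensembl gene ID carries that symbol in GENCODE 29, and all 10 were found among 60107 gene rows. All 10 are annotated as antisense genes: 6 lie in the HOXA cluster on chromosome 7, 2 in HOXC on chromosome 12, 1 in HOXB on chromosome 17 and 1 in HOXD on chromosome 2.

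RNA came from H9, an established human embryonic stem cell line, collected when day 9 had ended in a protocol of 10 days that directs the cells toward nephron progenitors, the cells that give rise to the nephrons of the kidney. The series compared 2 groups of 3 libraries: cells kept in complete medium, which holds glutamine, and cells kept without glutamine from day 0. Both groups came from this 1 line and were taken at the same time, and the labels do not say that the replicates were separate cultures, so the p-values measure the spread between these samples, which may be technical.

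HOX genes encode homeodomain transcription factors that set position along the body axis. In each cluster they are switched on in the order in which they lie, from the anterior genes, used early, toward the posterior genes, used late, and the kidney forms from mesoderm of an intermediate to posterior level. Antisense and intergenic RNAs are transcribed between and across them: HOTAIRM1 lies in the anterior part of HOXA and is induced by retinoic acid, HOTTIP lies at the HOXA13 end and binds WDR5 of the MLL complexes that keep HOX genes active, and HOTAIR comes from the HOXC cluster and is known for binding Polycomb repressive complex 2.

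Because the strand and overlap settings of the authors' counting are not given in the sources used here, they were read from the counts. Of 158 genes that lie wholly within the exons of an opposite-strand coding gene expressed at 50 CPM or more, 151 had 0 counts in all 6 libraries, and so did 41 of 43 genes within such exons on the same strand. CPM divides a gene's counts by the scaled library total, brought to the usual common size. The counts therefore behaved as if reads lying on 2 genes, on either strand, had been left out. This is an inference, since a silent gene would also have 0 counts under strand-specific counting. The 7 opposite-strand and 2 same-strand genes with a count held 6406 and 7866 counts, which the inferred rule does not account for. If it holds, reads from the 2 strands of what remains cannot be told apart. Below, the bases of a gene's exons that no other gene's exon covers are called its countable bases. They make up 93.6% of the exon bases of HOTAIR, 88.1% of HOXA-AS2, 87.8% of HOXC13-AS, 86.2% of HAGLR, 79.9% of HOTTIP, 69.9% of HOXB-AS3, 60.7% of HOXA-AS3, 55.1% of HOTAIRM1, 40.7% of HOXA11-AS and 37.7% of HOXA10-AS.

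Where those countable bases lie differs among the 10 genes. All of them for HOXA-AS2 and all 624 for HOXA10-AS lie inside the span of an opposite-strand coding HOX gene, HOXA3 and HOXA9 respectively. If the strands were not separated, intron reads of that gene would be counted for the antisense RNA. The share was 78.8% for HOXB-AS3, inside HOXB3 and HOXB6, and 69.1% for HOXA-AS3. It was 0% for HOTAIRM1 and HOXA11-AS, 0.59% for HAGLR and 2.42% for HOTAIR.

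The sequences below show RefSeq start regions of 3 of these genes, chosen because they stand for the 3 patterns described further on. HOXA-AS2 was lower without glutamine, HOXA11-AS was higher without it, and HOTTIP was at or near 0 counts everywhere. The windows, on GRCh38.p14, reach from 250 bases before to 50 bases after the RefSeq start. They are written 5′ to 3′ on the plus strand, with every CG pair in capitals. All 3 lie inside the GENCODE spans given further on, which begin at bases 27107777, 27184507 and 27198575. They are therefore not the first bases of the GENCODE genes.
HOXA-AS2 (chr7:27121669-27121968, plus strand): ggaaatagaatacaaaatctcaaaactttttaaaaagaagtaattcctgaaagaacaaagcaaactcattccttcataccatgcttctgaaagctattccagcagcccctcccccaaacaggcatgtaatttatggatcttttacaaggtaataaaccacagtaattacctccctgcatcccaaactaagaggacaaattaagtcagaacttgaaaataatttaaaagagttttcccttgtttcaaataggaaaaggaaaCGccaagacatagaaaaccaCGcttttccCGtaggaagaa
HOXA11-AS (chr7:27185217-27185457, plus strand, 241 of the 300 bases, the part outside annotated UTRs): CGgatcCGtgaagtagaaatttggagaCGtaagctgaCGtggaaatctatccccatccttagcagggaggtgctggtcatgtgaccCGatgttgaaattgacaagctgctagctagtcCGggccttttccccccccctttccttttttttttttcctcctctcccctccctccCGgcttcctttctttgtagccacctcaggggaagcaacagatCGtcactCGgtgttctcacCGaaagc
HOTTIP (chr7:27200171-27200470, plus strand): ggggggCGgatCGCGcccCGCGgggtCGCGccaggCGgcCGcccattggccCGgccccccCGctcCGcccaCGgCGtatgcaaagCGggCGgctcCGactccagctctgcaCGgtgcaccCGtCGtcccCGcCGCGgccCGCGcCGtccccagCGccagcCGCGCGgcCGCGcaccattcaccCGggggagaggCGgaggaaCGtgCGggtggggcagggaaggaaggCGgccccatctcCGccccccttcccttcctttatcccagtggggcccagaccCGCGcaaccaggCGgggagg
The HOXA-AS2 window held 3 CG pairs and 36.0% G or C, and the HOTTIP window held 41 CG pairs and 78.0% G or C. Of 35116 such windows in the table, the median held 14 CG pairs, 24.5% had no more than HOXA-AS2 and 6.69% had at least as many as HOTTIP. The whole HOXA11-AS window held 12, of which 10 are in the printed part. Windows were found for 6 of the 10 genes.

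Letters of homeodomain-type motifs were searched on both strands of the same windows. HOXA-AS2 had 1 match to TTTATNG, the core bound by caudal-type factors, and 1 match to TAATTA, a homeodomain core. These letters occur in 9.73% and 4.84% of all windows. Both motifs are mostly A and T, and the HOXA-AS2 window held 36.0% G or C where the median window held 58.7%. The shares are therefore not for windows of like composition. TGATTNAT, a composite of HOX and PBX, was in 2.82% of windows and not in that of HOXA-AS2. None of the 3 motifs was in the HOXA11-AS or HOTTIP window, which says only that these letters are not there.

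The libraries held 78220507 to 84746566 counts, and they did not separate cleanly by group. Across genes, which are not independent, libraries 2 and 3 of the glutamine group had a Pearson's r of log2 CPM of 0.996. The libraries without glutamine had r of 0.994 to 0.996 to each other. Replicate 1 with glutamine had r of 0.976 with its own group and 0.991 to 0.993 with the other. The results below are for all 6 libraries, and the main ones are also given without that library. All 12 nephron progenitor markers were detected. SIX2 stood at 6.57, 34.8 and 27.8 CPM with glutamine and at 9.70, 7.80 and 7.27 CPM without, and PAX2 at 150.1, 17.0 and 12.9 CPM with and 245.0, 199.9 and 145.8 CPM without, so replicate 1 also stood apart in markers of the labelled cell type.

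Without glutamine the noncoding RNAs of the HOX clusters were lower, higher or overlapping. HOTAIRM1, HOXA-AS2, HOXA-AS3 and HOXB-AS3, 4 RNAs from the anterior and middle parts of HOXA and HOXB, were lower in all 3 libraries than in any library with glutamine. HOXA11-AS and HOTAIR, from the posterior parts of HOXA and HOXC, were higher in all 3. HOXA10-AS and HAGLR overlapped between groups, and HOTTIP and HOXC13-AS had at most 3 counts in any library. In RNA from whole cultures, fewer cells that make an RNA and less of it per cell cannot be told apart.

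None of the 8 genes that could be tested passed the threshold. With edgeR's quasi-likelihood test over 22613 genes, 0 of 8 had a Benjamini-Hochberg adjusted p under 0.05, where 0.00442% of all genes did. At an unadjusted p under 0.05 there were 6 of 8 against 29.7% of all genes, 4 lower against 15.0% and 2 higher against 14.7%. The same 6 were those whose groups did not overlap, against 34.2% of all genes, 4 lower against 16.9% and 2 higher against 17.3%. DESeq2 called 6 of the 8, 4 lower and 2 higher, where it called 13.7% of the genes it adjusted, 6.3% lower and 7.38% higher. Without replicate 1 with glutamine, edgeR called 6 of 8, 4 lower and 2 higher, where it called 41.3% of 23164 genes, 19.0% lower and 22.3% higher. The median log2 fold change of the 8, without against with glutamine, was -0.29, and that of all genes tested was 0.0012.

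**Figure D1:**
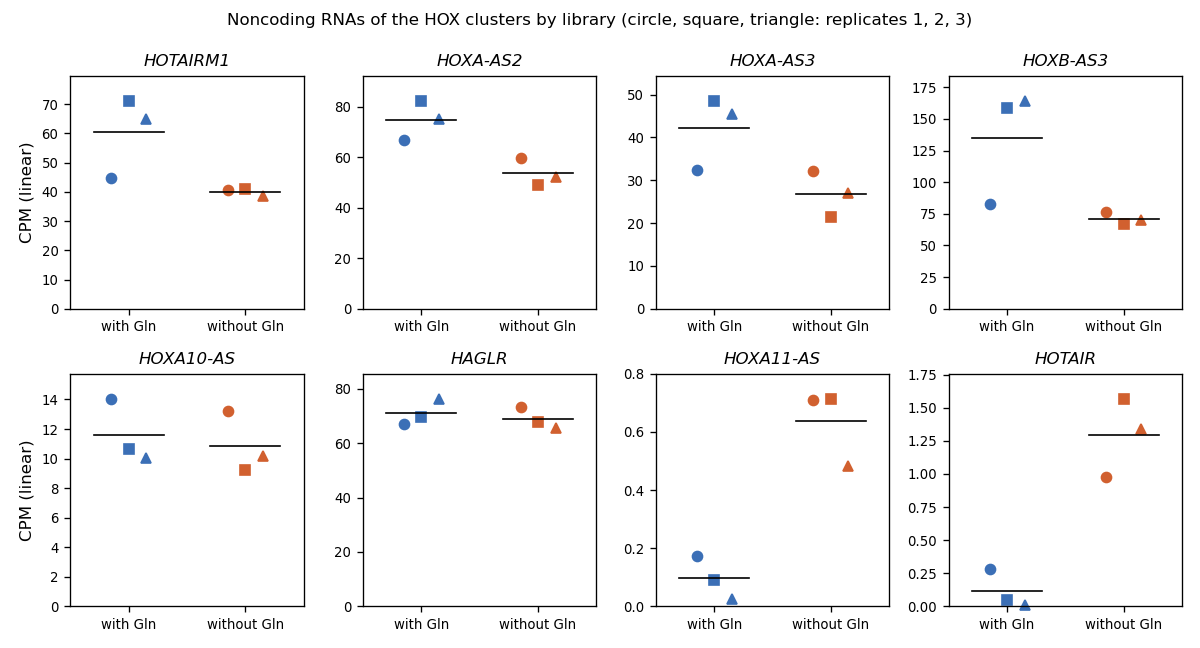
CPM (linear axis) of the 8 noncoding RNAs that could be tested, in each library with glutamine (blue) and without (orange), with the group mean as a bar (n = 3). In HOTAIRM1, HOXA-AS3 and HOXB-AS3 the circle of replicate 1 with glutamine lies close to the libraries without it, at 44.9, 32.3 and 82.7 CPM.

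HOTAIRM1 lies beside HOXA2 (chromosome 7, 27095647 to 27100265, plus strand) and is known from retinoic acid-driven myeloid and neural differentiation. It stood at 44.9, 71.1 and 65.1 CPM with glutamine and at 40.6, 41.0 and 38.7 CPM without, here and below in the order of replicates 1, 2 and 3. The libraries without glutamine were all lower, by little against replicate 1 and by more against replicates 2 and 3. The log2 fold change by edgeR was -0.59 (SE 0.16; adjusted p = 0.084), and -0.76 (SE 0.07; adjusted p = 3.57e-05) without replicate 1 with glutamine. DESeq2 gave an adjusted p of 0.015.

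HOXA-AS2 runs antisense through HOXA3 and HOXA4 (chromosome 7, 27107777 to 27134302, plus strand). Its levels were 66.9, 82.3 and 75.0 CPM with glutamine and 59.8, 49.0 and 52.0 CPM without. Here replicate 1 stayed nearer to its own group than for the other 3 RNAs that were lower. The log2 fold change by edgeR was -0.48 (SE 0.11; adjusted p = 0.072), and -0.55 (SE 0.09; adjusted p = 0.00124) without that library.

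HOXA-AS3 (chromosome 7, 27129977 to 27155928, plus strand) is antisense to HOXA5, HOXA6 and HOXA7 and reaches to HOXA3. It stood at 32.3, 48.5 and 45.5 CPM with glutamine and at 32.1, 21.5 and 27.0 CPM without. The groups were separated only by the small step between the 2 libraries numbered 1. Over all libraries the log2 fold change by edgeR was -0.65 (SE 0.19; adjusted p = 0.094), and without replicate 1 with glutamine -0.80 (SE 0.14; adjusted p = 0.00134).

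HOXB-AS3 spans HOXB3 to HOXB6 (chromosome 17, 48549630 to 48606414, plus strand) and is known as an annotated noncoding RNA from which a small peptide has been described. It had 82.7, 158.6 and 164.2 CPM with glutamine and 76.3, 66.9 and 69.9 CPM without. Replicates 2 and 3 with glutamine were far above the other 4 libraries, which lay close together. The log2 fold change by edgeR was -0.93 (SE 0.24; adjusted p = 0.081), the largest decrease among the 8, and -1.18 (SE 0.07; adjusted p = 2.5e-06) without replicate 1 with glutamine.

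HOXA11-AS overlaps the start of HOXA11 head to head (chromosome 7, 27184507 to 27189298, plus strand) and is known from endometrium and limb, where its level runs opposite to that of HOXA11. It had 14, 7 and 2 counts with glutamine and 61, 56 and 38 without, or 0.173, 0.090 and 0.025 CPM against 0.709, 0.715 and 0.484 CPM. All 3 libraries without glutamine were higher. On the log2 scale the fold change was 2.70 (SE 0.44; edgeR adjusted p = 0.068), and 3.44 (SE 0.46; adjusted p = 0.000314) without replicate 1 with glutamine. HOXA11 itself had 98, 3 and 6 counts with glutamine and 297, 412 and 286 without, so both genes of the pair were higher.

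HOTAIR (chromosome 12, 53962308 to 53974956, minus strand) lies between HOXC11 and HOXC12. Its counts were 23, 4 and 1 with glutamine and 84, 123 and 105 without, or 0.283, 0.051 and 0.013 CPM against 0.977, 1.57 and 1.34 CPM. The lowest library without glutamine was above the highest with it. The log2 fold change by edgeR was 3.44 (SE 0.57; adjusted p = 0.068), 10.8-fold, and 5.27 (SE 0.51; adjusted p = 3.51e-05) without replicate 1 with glutamine. That second value rests on 4 and 1 counts in the libraries with glutamine.

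HOXA10-AS (chromosome 7, 27168619 to 27171915, plus strand) lies antisense across exons of HOXA9 and HOXA10, and 62.3% of its exon bases fall under exons of other genes. It stood at 14.1, 10.7 and 10.0 CPM with glutamine and at 13.2, 9.20 and 10.1 CPM without. The 2 libraries numbered 1 were the highest of their groups, and the groups overlapped. The log2 fold change by edgeR was -0.09 (SE 0.18; adjusted p = 0.759), and it was 0.08 without replicate 1 with glutamine.

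HAGLR, also called HOXD-AS1 (chromosome 2, 176164051 to 176188958, minus strand), runs antisense from HOXD3 toward HOXD1. Its levels were 67.0, 69.8 and 76.5 CPM with glutamine and 73.5, 67.9 and 65.5 CPM without. The groups overlapped, and replicate 1 with glutamine lay next to replicate 2. The log2 fold change by edgeR was -0.04 (SE 0.08; adjusted p = 0.747).

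HOTTIP (chromosome 7, 27198575 to 27207259, plus strand) had 0, 3 and 2 counts with glutamine and 0 in every library without. HOXC13-AS (chromosome 12, 53935328 to 53939643, minus strand) had 0, 0 and 1 counts with glutamine and 0, 0 and 1 without. A count of 0 allows up to 3 counts, or 0.0349 to 0.0384 CPM in these libraries, so both RNAs were at or under what could be detected and neither was tested. Their coding neighbours were as scarce: HOXA13 had 7, 0 and 0 counts with glutamine and 5, 4 and 5 without, and HOXC13 had 1, 0 and 0 with and 2, 1 and 1 without.

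Levels per countable kb allow different genes to be set side by side if the inferred counting rule holds. By this measure the 10 RNAs fell into 3 ranges. With glutamine HOXB-AS3 led at 101.0 ± 34.0 CPM per kb and HOTAIRM1 followed at 73.3 ± 16.7 (SD, n = 3), and these overlapped. HOXA10-AS at 18.6 ± 3.48, HAGLR at 16.1 ± 1.10 and HOXA-AS2 at 16.1 ± 1.65 CPM per kb overlapped in turn, and HOXA-AS3 lay below them at 11.6 ± 2.38. HOXA11-AS at 0.0753 ± 0.0579 and HOTAIR at 0.0475 ± 0.0601 CPM per kb overlapped with each other and were far below the rest, and HOTTIP and HOXC13-AS had lower means, although the range of HOTTIP overlapped that of HOTAIR.

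Without glutamine the order of the 6 abundant RNAs by CPM per kb was the same. HOXB-AS3 had 53.1 ± 3.59 and HOTAIRM1 48.7 ± 1.51 CPM per kb, and here the 2 no longer overlapped. HOXA10-AS had 17.4 ± 3.37, HAGLR 15.7 ± 0.93, HOXA-AS2 11.5 ± 1.20 and HOXA-AS3 7.42 ± 1.47 CPM per kb (SD, n = 3). HOTAIR at 0.531 ± 0.123 and HOXA11-AS at 0.4995 ± 0.103 CPM per kb overlapped each other and stayed below all 6.

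Replicate 1 with glutamine took an intermediate level in each of the 6 RNAs whose groups did not overlap. On the log2 scale, with 0 at the mean of the other 2 libraries of its group and 1 at the mean of the libraries without glutamine, it lay at 0.42 for HOXA-AS2, 0.44 for HOXA11-AS, 0.55 for HOTAIR, 0.65 for HOXA-AS3, 0.79 for HOTAIRM1 and 0.81 for HOXB-AS3. It lay nearer to the libraries without glutamine than to its own group for 4 of these 6.

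**Figure D2:**
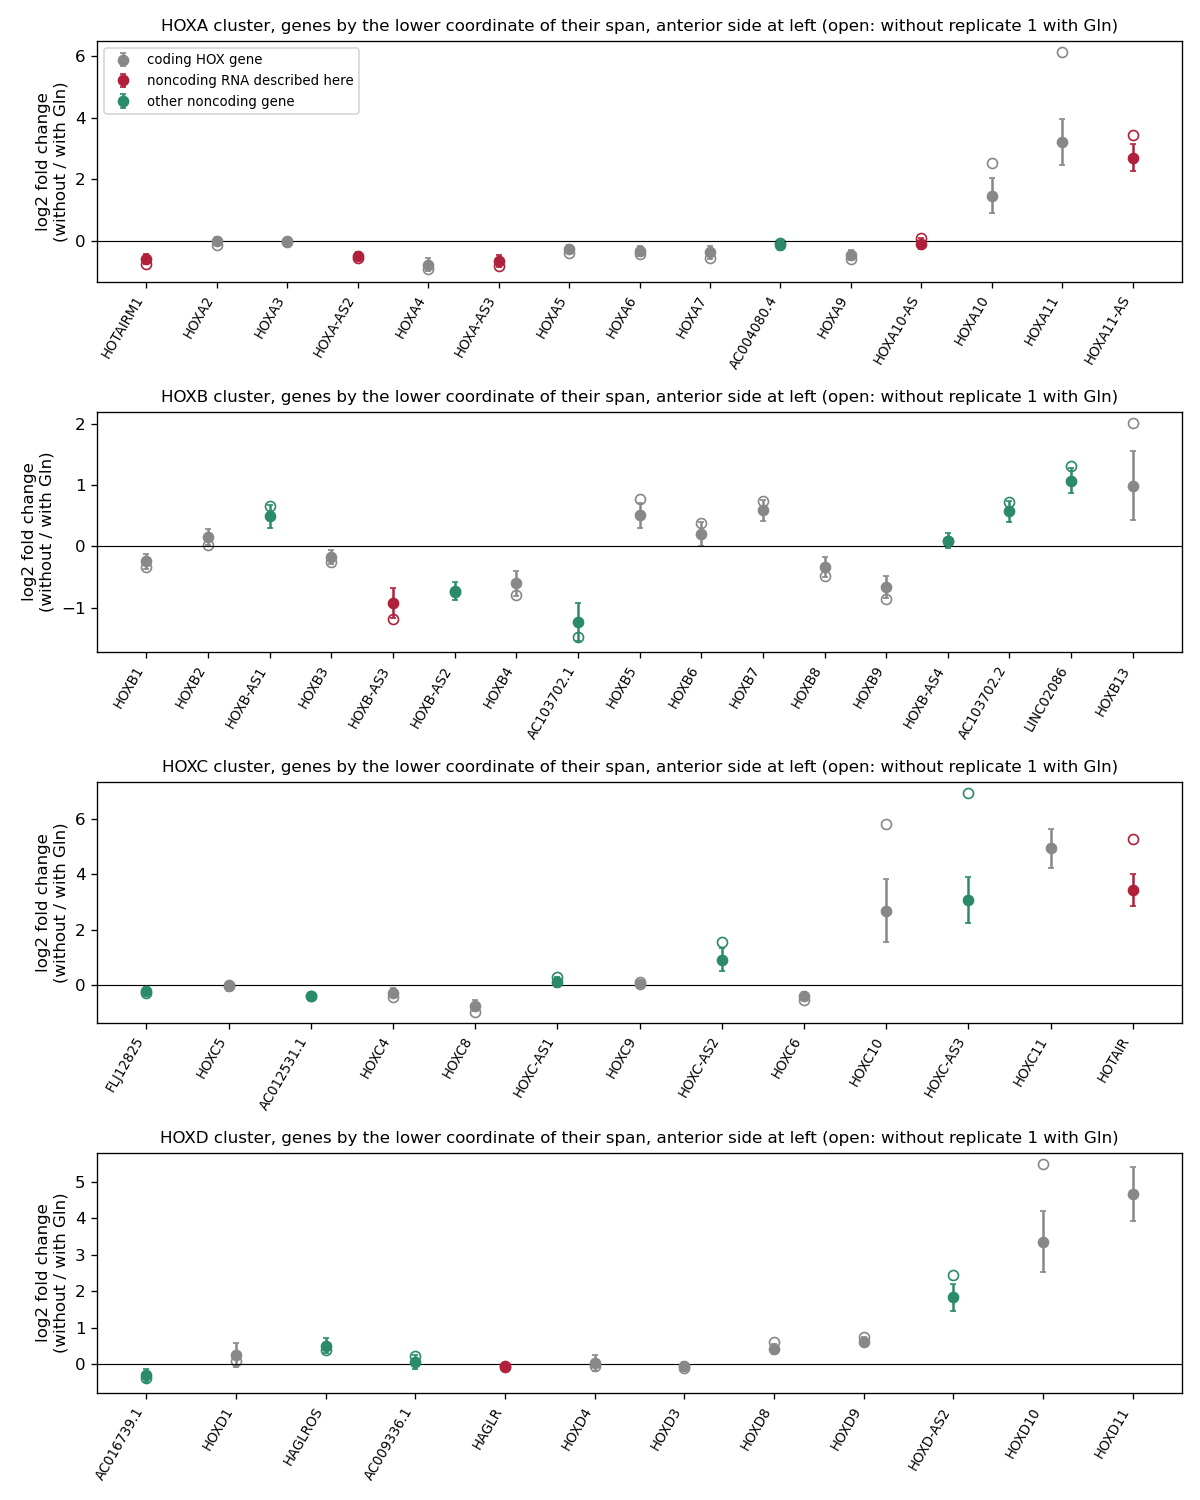
Log2 fold change (without against with glutamine) of coding HOX genes (grey), the noncoding RNAs described here (red) and other noncoding genes of the clusters with a mean of at least 50 counts (green), ordered by position. Filled points with bars are edgeR estimates ± SE from all 6 libraries. Open points are without replicate 1 with glutamine and are left out for genes with 3 counts or fewer in the 2 libraries that remain. Genes that could not be tested, and 1 coding gene of HOXA, are not drawn. The posterior ends of HOXA, HOXC and HOXD lie above 0. The coding genes at that end of HOXB differ in direction. HOXB13 is at 0.99 (SE 0.57) with overlapping groups, and HOXB9, the coding gene before it, is at -0.66 (SE 0.19) with every library lower.

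The coding HOX genes are given here for the loci of these RNAs. In HOXA the log2 fold changes were -0.77 for HOXA4 and -0.46 for HOXA9, near 0 for HOXA2 (0.00) and HOXA3 (-0.01), and -0.26 to -0.38 for HOXA5, HOXA6 and HOXA7. Toward the posterior end HOXA10 was at 1.46 (edgeR adjusted p = 0.144), or 2.53 (adjusted p = 1.57e-06) without replicate 1 with glutamine. HOXA11 was at 3.20 (adjusted p = 0.072), or 6.13 (adjusted p = 4.4e-06) without it. HOXC11 beside HOTAIR was at 4.94 (adjusted p = 0.068), from 20, 0 and 0 counts with glutamine to 154, 278 and 201 without. Its count is 0 in both libraries that remain without replicate 1, so no second fold change is given. In HOXD, HOXD10 was at 3.36 (5.50 without replicate 1 with glutamine) and HOXD11 at 4.67, from 44, 0 and 1 counts. Of 39 coding HOX genes 34 were tested, 0 passed the edgeR threshold, and 17 had an unadjusted p under 0.05, 10 higher and 7 lower, against 29.7% of all genes. DESeq2 called 9, against 13.7% of all genes, and edgeR without replicate 1 with glutamine called 24, 11 higher and 13 lower, against 41.3%.

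To compare a noncoding RNA with the HOX genes beside it, its counts were divided by theirs within each library, so that library size cancels. Neighbours were the coding HOX genes whose span overlaps the RNA and the nearest on each side within 50 kb. This gave 36 pairs, of which 30 had enough counts. In 16 of the 30 the ratio did not overlap between groups, and in all 16 it was lower without glutamine. Among single genes the groups did not overlap for 34.2%. That share is not of like kind, because a ratio can part when either gene moves. Ratios of other gene pairs were not computed. With 3 libraries against 3 the exact two-sided permutation test cannot give a p under 0.1, and after adjustment over the 30 pairs the smallest was 0.1875. Many pairs share a gene, so the 16 are not independent.

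**Figure D3:**
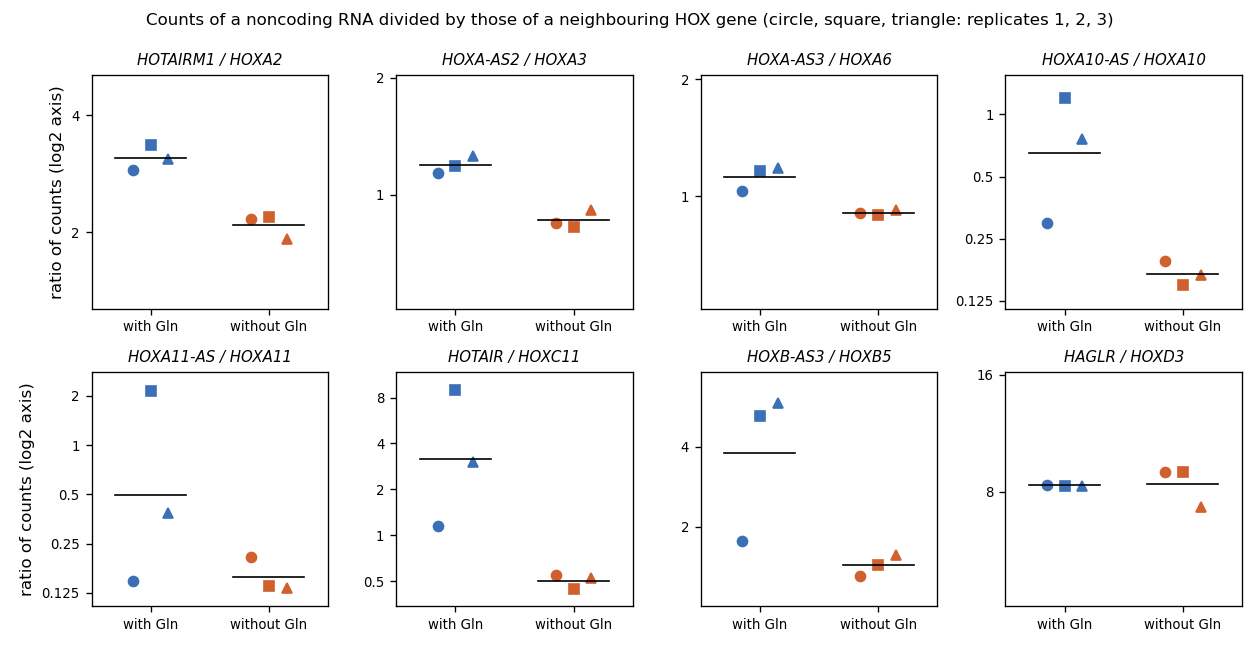
Counts of a noncoding RNA divided by those of a neighbouring coding HOX gene in each library (log2 axis, 0.5 added to each count), with the geometric mean of each group as a bar (n = 3). The groups are apart for HOTAIRM1 against HOXA2, HOXA-AS2 against HOXA3, HOXA-AS3 against HOXA6, HOXA10-AS against HOXA10, HOTAIR against HOXC11 and HOXB-AS3 against HOXB5, and overlap for HOXA11-AS against HOXA11 and HAGLR against HOXD3.

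HOTAIRM1 was lower relative to HOXA2, whose own groups overlapped. Its ratio to HOXA2 was 2.89, 3.36 and 3.09 with glutamine and 2.16, 2.19 and 1.92 without, all lower (log2 difference -0.58; exact permutation p = 0.1, two-sided).

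HOXA-AS2 and HOXA-AS3 were each lower relative to some of the genes they cross. The ratio of HOXA-AS2 to HOXA3 was 1.14, 1.18 and 1.26 with glutamine and 0.847, 0.826 and 0.913 without (log2 difference -0.47). HOXA3 itself, within whose span all countable bases of HOXA-AS2 lie, had overlapping groups and a log2 fold change of -0.01 (SE 0.11). HOXA-AS3 to HOXA6 was 1.03, 1.16 and 1.18 with and 0.907, 0.893 and 0.924 without (log2 difference -0.31). Against HOXA4, which was lower by 0.77 on the log2 scale, both ratios overlapped between groups. The ratio of HOXA-AS3 to HOXA7, which it also crosses, overlapped as well (log2 difference -0.29), as did that to HOXA9 beyond it (-0.20).

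HOXA10-AS sits where the direction turns. Its ratio to HOXA10 was 0.298, 1.20 and 0.763 with glutamine and 0.194, 0.149 and 0.167 without, 3.83-fold lower in the geometric mean. HOXA10 had 3827, 696 and 1031 counts with glutamine and 5858, 4847 and 4761 without, whereas the groups of HOXA10-AS overlapped, with 1141, 833 and 787 counts against 1137, 721 and 797. Against HOXA9 the ratio of HOXA10-AS overlapped between groups (log2 difference 0.36).

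HOXB-AS3 was lower relative to 3 of the 4 HOXB genes it crosses, HOXB3, HOXB4 and HOXB5. The ratio to HOXB5 was 1.77, 5.23 and 5.84 with glutamine and 1.31, 1.43 and 1.57 without (log2 difference -1.40). Log2 fold changes were -0.18 for HOXB3, -0.60 for HOXB4, 0.51 for HOXB5 (SE 0.21) and 0.20 for HOXB6 (SE 0.19), whose groups all overlapped, against -0.93 for HOXB-AS3. The next gene beyond it, HOXB7, was at 0.58. HOXB4 had the nearest value of these, and the ratio to it was still lower in all 3 libraries (log2 difference -0.29).

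HOXA11-AS and HOTAIR were higher along with the coding genes they overlap. The ratio of HOXA11-AS to HOXA11 overlapped between groups, at 0.147, 2.14 and 0.385 with glutamine and 0.207, 0.137 and 0.134 without. HOTAIR to HOXC11 was 1.15, 9.0 and 3.0 with glutamine and 0.547, 0.443 and 0.524 without, but the 2 highest ratios rest on the 0.5 added to HOXC11 counts of 0. HOTAIR to HOXC10 overlapped, with a log2 difference of -0.07.

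HAGLR and its coding neighbours in HOXD all overlapped between groups. The ratio of HAGLR to HOXD3 overlapped, at 8.34, 8.27 and 8.29 with glutamine and 8.98, 8.97 and 7.32 without (log2 difference 0.01).

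Other noncoding genes of the clusters held genes higher and genes lower without glutamine. GENCODE 29 lists 51 of them within 20 kb of the outermost coding HOX genes, of which 23 had no count in any library and 20 were tested. With edgeR 0 of the 20 passed the threshold and 9 had an unadjusted p under 0.05, 6 higher and 3 lower, against 29.7% of all genes. These 9 were also those whose groups did not overlap, against 34.2% of all genes. DESeq2 called 5, against 13.7%, and edgeR without replicate 1 with glutamine called 10 of the 20, a share near the 41.3% of all genes.

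HOXC-AS3, next to HOXC10 and HOXC11, had 132, 1 and 5 counts with glutamine and 359, 420 and 399 without (log2 fold change 3.07, SE 0.83; edgeR adjusted p = 0.083). Without replicate 1 with glutamine it was 6.93 (adjusted p = 6.73e-07), resting on 1 and 5 counts. HOXD-AS2, antisense across HOXD8 and HOXD9, had 271, 96 and 107 counts with and 736, 520 and 475 without (1.84, SE 0.37; adjusted p = 0.069), and 2.45 (adjusted p = 1.02e-05) without that library. In both, every library without glutamine was above every library with it. LINC02086 near HOXB13 was higher as well (1.07, adjusted p = 0.068), as were AC103702.2 (0.57), HAGLROS (0.50) and HOXB-AS1 (0.49).

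In HOXB, 2 further noncoding genes beside HOXB-AS3 were lower. AC103702.1 had 380, 799 and 589 counts with glutamine and 339, 181 and 256 without (log2 fold change -1.23, edgeR adjusted p = 0.078), and HOXB-AS2 had 1105, 1234 and 1005 with and 831, 543 and 694 without (-0.73, adjusted p = 0.069). AC012531.1 of HOXC was lower by 0.39 on the log2 scale. HAGLROS, which shares exon bases with HAGLR on the opposite strand, was higher while HAGLR overlapped between groups. HOXB-AS1, which shares exon bases with HOXB-AS3 on the same strand, was higher while HOXB-AS3 was lower. The other 7 with a mean of at least 50 counts, HOXC-AS2, HOXC-AS1, HOXB-AS4, AC004080.4, FLJ12825, AC009336.1 and AC016739.1, overlapped between groups. HOXC-AS2 overlapped only through replicate 1 with glutamine, at 28.5, 9.03 and 12.6 CPM with and 40.4, 26.3 and 27.6 CPM without. Its log2 fold change was 0.91 (edgeR adjusted p = 0.184), and 1.54 (adjusted p = 0.000267) without that library.

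Genes that act on the HOX clusters or on these RNAs are given next, by list. At an unadjusted edgeR p under 0.05, 14.7% of all genes were higher and 15.0% lower, the shares to set beside these lists. Of 12 subunits and partners of Polycomb repressive complex 2, which lays the repressive mark on HOX chromatin, 0 passed the edgeR threshold and 2 were higher and 2 lower at an unadjusted p under 0.05, with a median log2 fold change of 0.08. For 12 genes of the MLL complexes with WDR5 these were 0, 1 and 2, with a median of 0.07, and for 6 histone demethylases and insulator proteins 0, 0 and 2, with a median of -0.16. Of 7 HOX cofactors 0 passed and 1 was higher at an unadjusted p under 0.05, PBX3, at 40.1, 17.1 and 15.8 CPM with glutamine and 46.1, 46.3 and 47.0 CPM without (log2 fold change 0.93, edgeR adjusted p = 0.128), and 1.4997 (adjusted p = 7.05e-07) without replicate 1 with glutamine. Without that library edgeR called 3 higher and 2 lower in the Polycomb list, 2 and 2 in the MLL list, 0 and 3 among the demethylases and insulator proteins, and 3 and 0 among the cofactors, where 22.3% of all genes were called higher and 19.0% lower.

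Among 13 axial regulators that act upstream of HOX genes, 0 passed the edgeR threshold, and the median log2 fold change was -0.39. At an unadjusted p under 0.05, 2 were higher and 3 lower, where 14.7% of all genes were higher and 15.0% lower. Without replicate 1 with glutamine edgeR called 2 higher and 7 lower, where it called 22.3% of all genes higher and 19.0% lower. Lower genes outnumbered higher ones in both counts, by 3 to 2 in the first. The rule for naming, groups apart and a log2 fold change of at least 0.5 in size, was met only by 2 higher genes. GBX2, a homeobox gene of the gastrulating embryo, stood at 2.81, 1.79 and 1.78 CPM with glutamine and 3.60, 4.24 and 3.43 CPM without (log2 fold change 0.82, edgeR adjusted p = 0.081). WNT3A, a ligand of the tail bud, stood at 2.99, 3.23 and 3.21 CPM with and 6.61, 3.92 and 3.23 CPM without (0.55, adjusted p = 0.212). In both genes the groups did not overlap, by a small margin for WNT3A.

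Markers of other cell types differed between the same libraries. The summed level of 6 endothelial and blood markers was 32.2 to 91.8 CPM with glutamine, lowest in replicate 1, and 18.045 to 23.9 CPM without. Of these GATA1 and PTPRC had under 10 counts in every library, and all 4 that could be tested were lower at an unadjusted p under 0.05. At that threshold 15.0% of all genes were lower and 14.7% higher, which holds for the counts of the next 2 lists too. Of 6 endoderm markers, with FOXA2 under 10 counts, the sum was 49.0 to 58.1 CPM with and 99.6 to 115 CPM without, with 2 higher and 2 lower among 5 tested. Of 6 somite markers the sum was 39.7 to 144 CPM with, again lowest in replicate 1, and 33.7 to 62.2 CPM without, with 1 higher and 4 lower. Of 6 pluripotency markers, with NANOG and TDGF1 under 10 counts, the sum was 140.3 to 203.4 CPM with and 233 to 295 CPM without. Most of that sum was 1 gene, DPPA4, at 184.3, 125.9 and 113.0 CPM with and 255.1, 269.3 and 212.3 CPM without. The 6 neural markers summed to at most 6.6 CPM in any library. The part of these other cell types in the levels of the noncoding HOX RNAs was not tested.

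Many other genes followed the same pattern over the libraries. For each RNA with a mean of at least 50 counts, the coding genes outside the clusters with the highest Pearson's r of log2 CPM over the 6 libraries were looked up among 10884 genes with a mean of at least 500 counts. These libraries fall into 2 clusters, so an r describes little more than that split. The first 3 were FOXJ3, SLITRK5 and TBC1D32 for HOTAIRM1, HELB, UBXN7 and ZC3H6 for HOXA-AS2, ZNF608, MAVS and TET3 for HOXA-AS3, and METTL16, TNFRSF19 and CACHD1 for HOXB-AS3, with r of 0.994 to 0.9997. ITGA3, ITM2B and C1QTNF3 came first for HOTAIR. For these 5 RNAs 318 to 906 genes had an r over 0.95. HOXA10-AS had 20 such genes, led by TRIOBP, and HAGLR 8, led by MAD2L2.

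**Figure D4:**
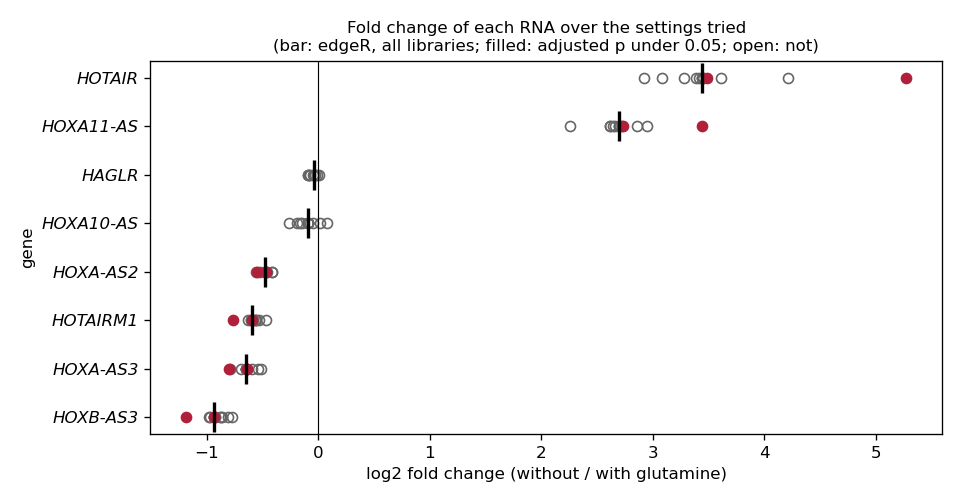
Log2 fold change (without against with glutamine) of the 8 tested noncoding RNAs under the main edgeR fit (bar) and 14 other settings (circles, filled where the adjusted p was under 0.05). HOTAIR and HOXA11-AS stay above 0 and HOXA-AS2, HOTAIRM1, HOXA-AS3 and HOXB-AS3 below 0 in each setting, whereas HAGLR and HOXA10-AS lie on both sides of 0.

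Over 14 other settings of the test the direction of the 6 RNAs without overlap did not change. HOTAIR lay between 2.92 and 5.27 on the log2 scale, HOXA11-AS between 2.26 and 3.44, HOXB-AS3 between -1.18 and -0.77, HOXA-AS3 between -0.80 and -0.51, HOTAIRM1 between -0.76 and -0.47 and HOXA-AS2 between -0.56 and -0.41. Each was called under 2 of the 14 settings, DESeq2's test and edgeR without replicate 1 with glutamine. The adjusted p ranged from 3.57e-05 to 0.275 for HOTAIRM1 and from 7.12e-06 to 0.259 for HOTAIR.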

How the data were processed

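Values came from 6 mRNA libraries, read per the labels' protocols as single 50-nt ends after an Illumina stranded kit. The authors deposited raw counts per Ensembl gene, used for every test, and a table of normalized counts, treated as a signal and used only to read the size factors (0.977 to 1.08). The submitters' processing notes name cutadapt, Trim Galore, FastQC, STAR 2.5.2b, DESeq2 and GRCh38. The counter and strand setting are not given in the sources used here. Column headings name days 0 and 9, but the labels place all samples at day 9 and each sample's description states its heading, which set the groups. Symbols and positions came from GENCODE 29 on GRCh38: 56531 of 60107 IDs matched, and the other 3576 held 0.148% of counts.

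The test was edgeR 4.0.16 under R 4.3.3 on these counts (quasi-likelihood, legacy = FALSE, TMM, filterByExpr), which kept 22613 genes holding 99.9% of counts, with Benjamini-Hochberg adjustment at 0.05. CPM used the TMM-scaled library size. Alternatives used DESeq2 1.42.0, limma 3.58.1 and those named in the closing section. Ratios to neighbouring genes added 0.5 to each count and used an exact permutation test. The scripts were tested on simulated data. Like-pattern genes were the 3 coding genes outside the clusters with the highest r. Other noncoding genes were named at a mean of 50 counts or more, and list genes where groups did not overlap and the log2 fold change was at least 0.5 in size, at most 4 a list. The RNAs and the gene lists were chosen with earlier results of these data known.

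Same-numbered libraries did not deviate together: the correlation of their deviations from the group means was -0.021, 0 and 0.028 for numbers 1, 2 and 3, so the fit without a block was kept. The values of 1 coding HOX gene are not reported here, though counts over all coding HOX genes and all ratios include it.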

Additional observations from a re-analysis of the deposited data

How the results depend on the processing

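The count of genes called by edgeR was 1 with all libraries. It was 0 with upper quartile scaling, with limma-voom, with edgeR's legacy setting and with the replicate block, 2 without a filter and 3030 with DESeq2's test. Leaving out 1 library gave 0 to 9573 genes, the highest without replicate 1 with glutamine and 17 without replicate 1 of the group without it. Of the noncoding HOX RNAs 0 were called; DESeq2's test called 6, and leaving out 1 library called 0 to 6, the 6 again without replicate 1 with glutamine. With the replicate block 0 genes and 0 of these RNAs were called, and 20 of the 30 ratios to neighbours had all paired differences of 1 sign. Samples share a number only, so this is no paired design. Over 112 values of the 8 RNAs, 97 kept direction and call, 12 became called and 3 reversed. Leaving out 1 library moved HOXA10-AS between -0.26 and 0.08, above 0 without replicate 1 with glutamine (0.08) and without replicate 2 of the group without it (0.02), and moved HAGLR between -0.09 and 0.01, above 0 without replicate 3 with glutamine. Over 240 values of the ratios 9 reversed, in 5 ratios whose groups overlapped. Leaving out 1 library moved the log2 difference of HAGLR to HOXD4 between -0.17 and 0.14 (0.0016 and 0.02 without replicates 1 and 3 with glutamine), HOTAIR to HOXC10 between -0.57 and 0.69 (0.02 without replicate 1 of the group without glutamine), HAGLR to HOXD1 between -0.53 and 0.02, HAGLR to HOXD3 between -0.03 and 0.11 and HOXA-AS3 to HOXA4 between -0.03 and 0.29. The cause was not tested. The number of ratios without overlap was 16, and 16 to 22 when 1 library was left out. HOTTIP and HOXC13-AS had too few counts for a test, as had their neighbours HOXA13 and HOXC13.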
